A study of Mus musculus with 12 samples.

Results

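Collagen chain genes were followed in 12 RNA-seq libraries of brown (BAT) and inguinal white (WAT) adipose tissue from mice, 3 libraries in each of 4 groups. The set holds every protein-coding gene whose symbol is Col, a number, a and a number. Of 52550 gene IDs in the deposited count table, 44 met this rule, and each had at least 1 read in some library. They were grouped as fibrillar collagens (11 genes), basement membrane collagens of type IV (6), type VI collagens (6) and others (21). The groups were BAT AKO, BAT control, WAT AKO and WAT control. AKO mice were Mcu fl/fl AKO, an adipose tissue-specific knockout of Mcu, which encodes the channel protein that takes calcium into mitochondria. Control mice were Mcu fl/fl without the knockout, so both genotypes carry the floxed alleles, and all groups received a high-fat diet. No source used here gives the Cre driver, the age or sex of the animals, or how many animals stand behind a library. The p-values therefore cover only the spread from library to library, which may be technical.

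Collagens are secreted proteins whose chains wind around one another in a helix. Types I, III and V assemble into fibrils that give tissue tensile strength, type IV forms the sheet-like network of basement membranes, and type VI forms beaded microfilaments in the matrix around cells. Each adipocyte lies in a basement membrane rich in type IV collagen, fibroblasts and adipocyte progenitors make most of the fibrillar chains, and type VI collagen is abundant around fat cells in obesity. In these bulk tissue samples, fewer cells of a type and less RNA per cell cannot be told apart.

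Total counts ran from 15692588 to 18967159 per library. Mcu, the targeted gene, averaged 10.8 ± 3.3 CPM in BAT AKO and 26.5 ± 2.4 CPM in BAT control, and 11.2 ± 1.2 CPM in WAT AKO and 18.5 ± 0.5 CPM in WAT control (SD, n = 3 each). CPM here means counts scaled to library size after TMM normalisation over all 12 libraries. The groups did not overlap in either tissue, but neither change passed edgeR's quasi-likelihood test over all genes (adjusted p = 0.202 in BAT and 0.08 in WAT). Brown adipocyte markers summed to between 6518 and 8323 CPM in BAT and between 19.4 and 50.5 CPM in WAT. Adipocyte markers summed to between 14240 and 22640 CPM in all 12 libraries. Some libraries stood apart within their group. The summed B lymphocyte markers stood at 348 to 805 CPM in WAT AKO, against 2.06, 274 and 1.82 CPM in WAT control 1, 2 and 3, so WAT control 2 resembled the AKO libraries in this respect. Skeletal muscle markers took 1.27% of the counts of BAT AKO 2, 1.74% of WAT AKO 2 and 1.01% of WAT control 1.

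Type IV and fibrillar chains led the collagen transcripts in both tissues. Levels of different genes were compared as the authors' deposited FPKM, which are per length. Col4a1 and Col4a2, the chains of the widespread form of type IV collagen, and Col3a1, the type III chain, held the first 3 places in every group. Col4a1 averaged 80.9 ± 1.7 FPKM in BAT AKO and 129 ± 34 FPKM in BAT control, and 247 ± 20 FPKM in WAT AKO and 409 ± 108 FPKM in WAT control (SD, n = 3 each). Col4a2 averaged 81 ± 3.2 FPKM in BAT AKO and 129 ± 29 FPKM in BAT control, and 217 ± 21 FPKM in WAT AKO and 382 ± 121 FPKM in WAT control. Col3a1 averaged 38.5 ± 0.13 FPKM in BAT AKO and 42.9 ± 6.5 FPKM in BAT control, and 210 ± 25 FPKM in WAT AKO and 380 ± 120 FPKM in WAT control. Neighbours in this order were mostly within their spread: Col4a1 and Col4a2 in every group, and also Col3a1 and Col4a2 in WAT. In BAT the step from Col4a2 to Col3a1 was larger than the spread of both genes. Col6a1 and Col1a1 came next in every group, and 13 of the 44 genes made up 98.5% of the collagen FPKM in WAT AKO and 98.6% in WAT control.

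**Figure D1:**
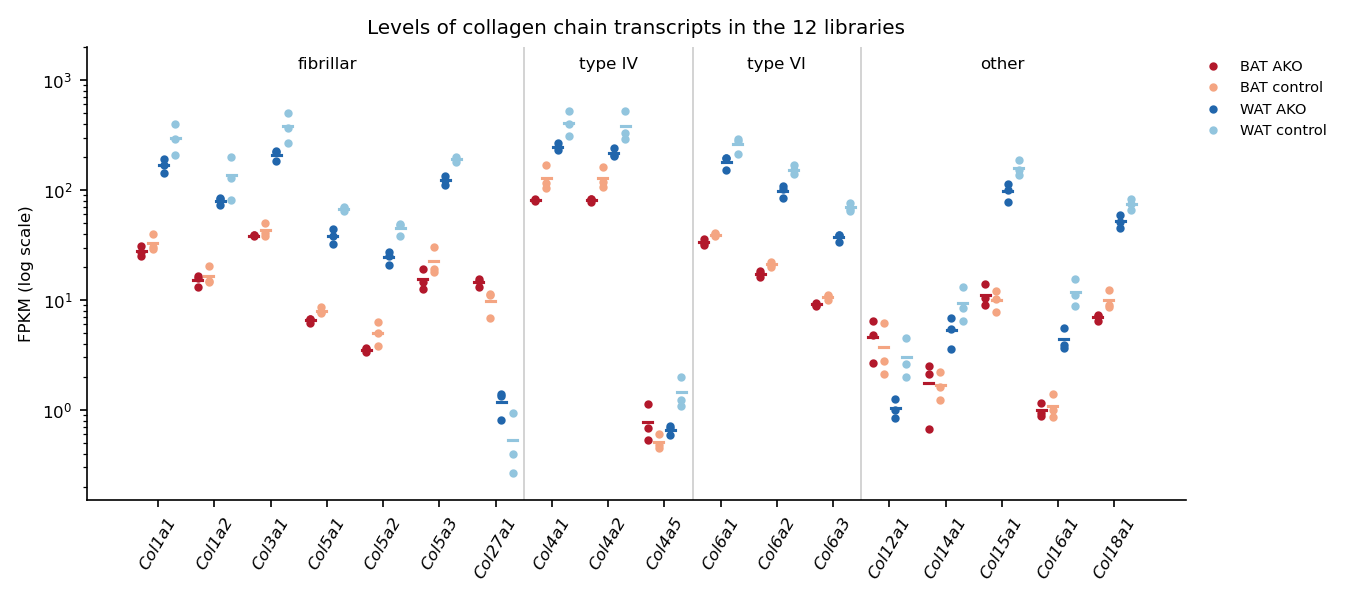
Levels of 18 collagen genes in FPKM (log scale) in the 12 libraries. Each point is 1 library, bars are group means (n = 3), and grey lines part the classes; the BAT points lie below the WAT points for most genes and above them for Col27a1.

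As a share of all counts, collagen transcripts took 0.298%, 0.289% and 0.295% in BAT AKO 1, 2 and 3, against 0.367%, 0.337% and 0.433% in BAT control 1, 2 and 3. In WAT they took 1.3%, 1.25% and 1.06% in AKO 1, 2 and 3, against 2.27%, 1.86% and 1.97% in control 1, 2 and 3. The AKO libraries were lower than every control library in both tissues, and an exact two-sided permutation test of 3 against 3 cannot give a p below 0.1. Type IV chains made up 42.2% to 44.2% of the collagen FPKM in BAT AKO and 47.6% to 57.4% in BAT control, and 27.6% to 30.7% in WAT AKO and 24.6% to 39.5% in WAT control. Fibrillar chains made up 31.5% to 33.5% in BAT AKO and 24.2% to 31.3% in BAT control, and 39.8% to 41.4% in WAT AKO and 33.2% to 48.7% in WAT control. The shares of both classes did not overlap between the genotypes in BAT, while in WAT the AKO libraries lay within the wider range of the controls. Type VI chains held between 12% and 21.4% in all 12 libraries.

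**Figure D2:**
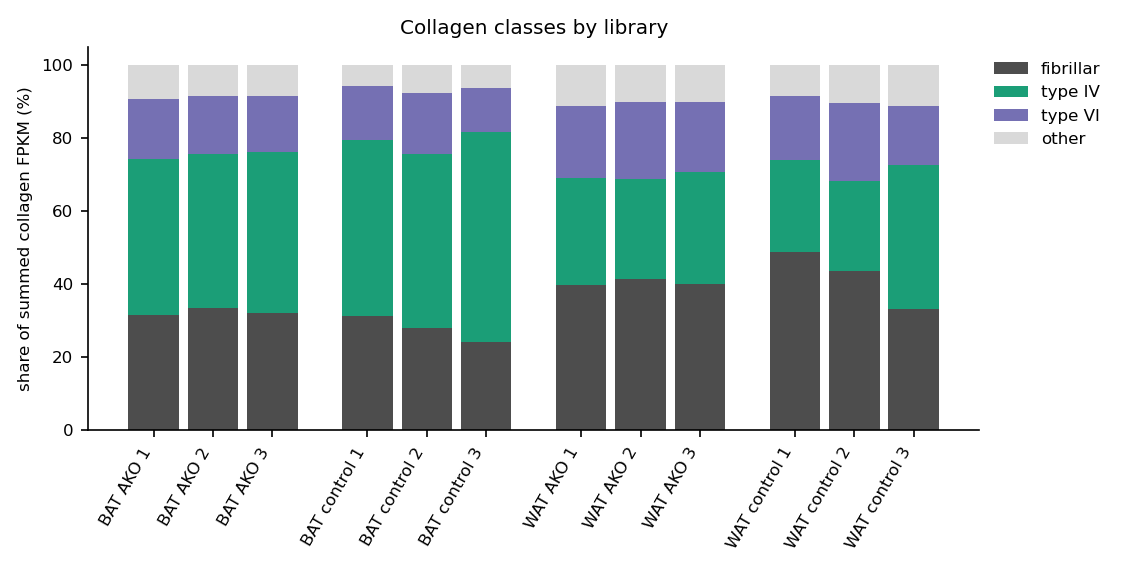
Shares of the summed collagen FPKM (%) taken by the fibrillar, type IV, type VI and other classes, 1 bar per library. Type IV takes 47.6% or more in the BAT control bars and the fibrillar class varies from 33.2% to 48.7% among the WAT control bars.

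The WAT controls differed among themselves in which collagens they held. Col1a1, the major chain of type I collagen, stood at 2495, 1600 and 1233 CPM in WAT control 1, 2 and 3, while Col4a1 stood at 2824, 1938 and 3480 CPM. Type I and III chains were highest in control 1, and Col4a1, Col4a2, Col12a1 and Col16a1 were highest in control 3. Smooth muscle and pericyte markers summed to 606, 491 and 1142 CPM in WAT control 1, 2 and 3, and endothelial markers to 904, 829 and 1656 CPM, both highest in control 3. Their part in the collagen levels was not tested.

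The ratio of Col4a1 to Col1a1 shows this spread. The FPKM ratio was 3.32, 2.57 and 2.97 in BAT AKO 1, 2 and 3, against 2.91, 3.42 and 5.84 in BAT control 1, 2 and 3. In WAT it was 1.41, 1.44 and 1.62 in AKO 1, 2 and 3, against 0.995, 1.06 and 2.48 in control 1, 2 and 3. Control 3 was the highest of its group in both tissues. The following ratios varied less than that of Col4a1 to Col1a1. Col1a1 over Col1a2 lay between 1.71 and 2.57, Col4a1 over Col4a2 between 0.967 and 1.19, and Col6a1 over Col6a2 between 1.52 and 1.95 across the 12 libraries. Col6a3 over Col6a1 lay between 0.196 and 0.315, Col5a1 over Col5a2 between 1.24 and 1.99, and Col5a3 over Col5a1 between 2.02 and 3.84. Col3a1 over Col1a1, chains of different molecules, lay between 1.16 and 1.54, so a narrow ratio was not particular to chains of the same molecule.

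**Figure D3:**
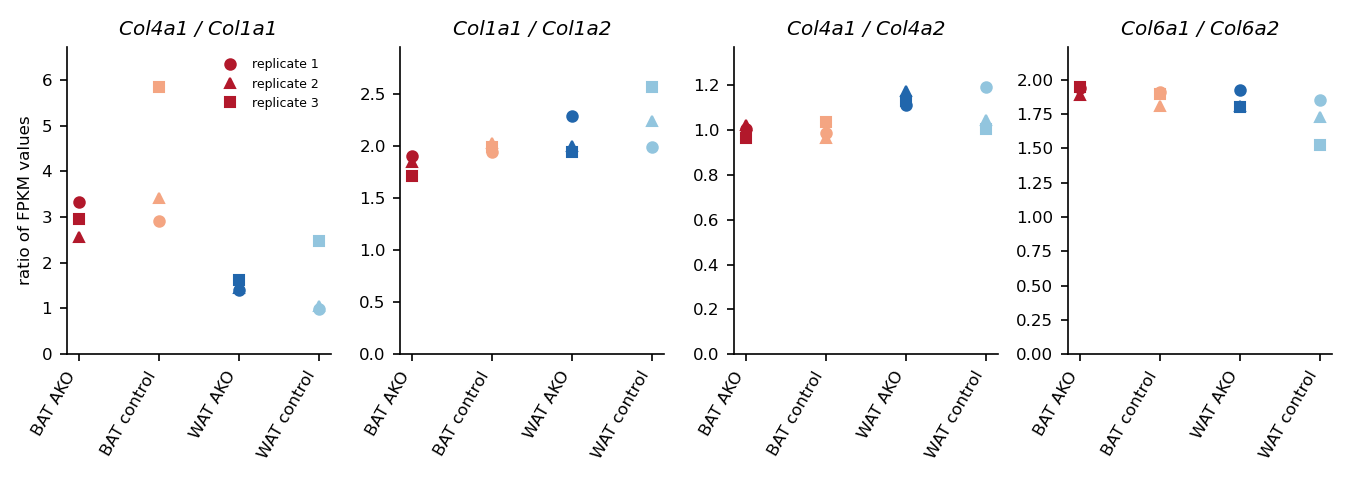
FPKM ratios of 4 pairs of collagen chains, 1 point per library, with the replicate number given by the marker shape. The Col4a1 to Col1a1 ratio reaches 5.84 in BAT control 3 and 2.48 in WAT control 3, while the Col4a1 to Col4a2 ratio stays between 0.967 and 1.19.

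Col4a1 and Col4a2 are neighbours that start head to head. In GENCODE M21 (GRCm38) Col4a1 starts at 11312826 on the minus strand of chromosome 8 and Col4a2 at 11312805 on the plus strand, so their first exons share 22 bases, and reads from those bases cannot be told apart without a stated strand setting. The type IV genes Col4a4 and Col4a3 start 72 bases apart on chromosome 1 and Col4a6 and Col4a5 start 1309 bases apart on the X chromosome, also on opposite strands. RefSeq promoter windows (GRCm38.p6, 250 bases before and 50 after a start) were found for 35 of the 44 genes. The windows of the Col4a1 and Col4a2 pair are shown because these chains kept the closest ratio, that of Col3a1 because it is the leading fibrillar chain, and that of Col27a1 because it went against most fibrillar genes between tissues. They lie at chr8:11312777-11313076 (minus strand), chr8:11312555-11312854 (plus), chr1:45311288-45311587 (plus) and chr4:63215162-63215461 (plus), and read 5′ to 3′ on the gene's strand. Capitals mark a CCAAT box (CCAAT), a GC box (GGGCGG) or a TATA box (TATAAA) on either strand, and no marked match overlaps another in these windows.
Col4a1: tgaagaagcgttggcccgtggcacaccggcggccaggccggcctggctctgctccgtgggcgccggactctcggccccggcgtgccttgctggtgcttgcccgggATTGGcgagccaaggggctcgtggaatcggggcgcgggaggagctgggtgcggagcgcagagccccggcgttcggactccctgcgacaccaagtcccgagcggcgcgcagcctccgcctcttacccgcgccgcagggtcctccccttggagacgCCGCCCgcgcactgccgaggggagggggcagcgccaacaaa
Col4a2: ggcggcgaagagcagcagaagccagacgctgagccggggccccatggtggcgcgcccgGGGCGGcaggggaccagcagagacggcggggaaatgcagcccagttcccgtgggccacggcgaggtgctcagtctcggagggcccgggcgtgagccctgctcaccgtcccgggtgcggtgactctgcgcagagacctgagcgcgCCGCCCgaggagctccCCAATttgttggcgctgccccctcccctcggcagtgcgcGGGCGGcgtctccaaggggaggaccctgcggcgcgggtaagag
Col3a1: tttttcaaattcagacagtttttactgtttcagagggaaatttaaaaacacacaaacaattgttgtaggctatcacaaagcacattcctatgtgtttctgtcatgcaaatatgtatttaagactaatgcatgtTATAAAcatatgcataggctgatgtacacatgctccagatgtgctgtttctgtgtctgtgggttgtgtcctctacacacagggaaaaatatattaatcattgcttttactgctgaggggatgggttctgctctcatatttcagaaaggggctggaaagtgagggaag
Col27a1: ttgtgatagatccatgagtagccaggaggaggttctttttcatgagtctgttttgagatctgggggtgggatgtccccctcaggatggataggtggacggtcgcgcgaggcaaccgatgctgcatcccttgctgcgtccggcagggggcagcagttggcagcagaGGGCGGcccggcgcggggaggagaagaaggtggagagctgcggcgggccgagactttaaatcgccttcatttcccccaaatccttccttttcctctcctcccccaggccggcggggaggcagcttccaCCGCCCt

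The Col4a1 and Col4a2 windows overlap by 78 bases, and a GC box within the overlap is marked in both. Col3a1 holds a TATA box match and a GC content of 37.7%, against 74%, 73.7% and 61.7% for Col4a1, Col4a2 and Col27a1. A GC box was found in 22 of 35 collagen genes (62.9%), against 35.7% of all 32851 RefSeq windows. CCAAT was found in 13 (37.1%, against 37.4% of all windows) and TATAAA in 5 (14.3%, against 13.6%). The collagen shares count genes with a match in any of their 38 windows, while the shares of all count single windows, so the units differ. The matches are of letters only, on both strands, and were not tested.

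In WAT, most collagen transcripts had lower mean levels in AKO than in control, but none passed the test over all genes. edgeR tested 35 of the 44 members and called none at an adjusted p under 0.05, beside 0.0189% of all 15915 genes tested, all of them higher. Of the 35 members, 26 had a negative log2 fold change, beside 49.5% of all genes, with a median of −0.63 over the members and 0.00 over all genes. The libraries of the groups did not overlap, with AKO lower, for 17 members, beside 14.5% of all genes. They did not overlap, with AKO higher, for 1 member, Col6a5, beside 15.9% of all genes. At an unadjusted p under 0.05, 17 members were lower in AKO, beside 12% of all genes, and 2 were higher, beside 10.6%. The 9 members not tested were Col2a1, Col4a6, Col8a2, Col9a1, Col9a2, Col10a1, Col19a1, Col25a1 and Col26a1, each with low counts in every group. Col6a4, Col9a3 and Col22a1 passed the filter only through WAT AKO.

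Among fibrillar chains in WAT, Col1a1 stood at 996, 980 and 746 CPM in AKO 1, 2 and 3, against 2495, 1600 and 1233 CPM in control. Every AKO library was below every control, but the controls were widely spread (log2 fold change −0.98, SE 0.289, adjusted p = 0.137). Col3a1 stood at 1730, 1969 and 1434 CPM in AKO, against 4717, 3050 and 2337 CPM in control, also without overlap (−0.99, SE 0.293, adjusted p = 0.138). Col1a2, the partner chain of Col1a1, stood at 824, 929 and 726 CPM in AKO, against 2375, 1353 and 909 CPM in control. Here AKO 2 lay above control 3, so the groups overlapped (−0.92, SE 0.35, adjusted p = 0.196). These values rested in part on WAT control 1, the control with most skeletal muscle counts: without it the log2 fold changes were −0.67 for Col1a1, −0.68 for Col3a1 and −0.48 for Col1a2.

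The type V chains, which set the diameter of type I fibrils, varied less among the controls. Col5a1 stood at 300, 287 and 221 CPM in WAT AKO, against 561, 458 and 520 CPM in WAT control (−0.95, SE 0.17, adjusted p = 0.0824). Col5a2 stood at 207, 212 and 161 CPM in AKO, against 440, 310 and 422 CPM in control (−1.03, SE 0.194, adjusted p = 0.0882). Col5a3 measured −0.77 (SE 0.171, adjusted p = 0.104). The groups did not overlap for any of the 3. Of the 10 fibrillar genes tested, 8 had negative log2 fold changes, and the 2 with positive ones were Col27a1 (1.02, SE 0.44) and Col11a2 (1.01, SE 0.4). With single libraries left out these ran from 0.70 to 1.60 for Col27a1 and from 0.79 to 1.54 for Col11a2. Both were highest without WAT control 2, the control in which both genes were highest.

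The log2 fold changes of all 5 type IV genes tested in WAT were negative (median −0.87). Col4a1 stood at 1595, 1608 and 1370 CPM in AKO, against 2824, 1938 and 3480 CPM in control (−0.87, SE 0.248, adjusted p = 0.133). Col4a2 stood at 1269, 1212 and 1074 CPM in AKO, against 2100, 1640 and 3071 CPM in control (−0.96, SE 0.26, adjusted p = 0.126). The AKO libraries lay close together, and the controls were spread. Col4a5, a chain of basement membranes best known from kidney, was far less abundant, with 3.8, 3.53 and 3.67 CPM in AKO and 12.8, 7.03 and 6.56 CPM in control (−1.28, SE 0.288, adjusted p = 0.105).

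Type VI split by chain in WAT. Col6a3, the chain that carries the endotrophin fragment at its end, stood at 368, 416 and 320 CPM in AKO, against 873, 653 and 720 CPM in control (−1.04, SE 0.174, adjusted p = 0.08). Col6a1 (−0.66, SE 0.204) and Col6a2 (−0.77, SE 0.177) were likewise lower in every AKO library than in any control. Col6a5, a rarer chain related to Col6a3, was higher in every AKO library, with 3.76, 3.78 and 4.63 CPM in AKO and 1.75, 2.1 and 1.31 CPM in control (1.21, SE 0.239, adjusted p = 0.0945). Col6a4 had 66, 43 and 132 counts in WAT AKO 1, 2 and 3, against 2, 56 and 2 counts in WAT control 1, 2 and 3, and 0 to 2 counts in each BAT library. WAT control 2, the control with B lymphocyte markers, was the control with Col6a4 counts.

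Of the other collagens in WAT, Col16a1 and Col12a1, which associate with fibrils, had the most negative log2 fold changes. Col16a1 stood at 30, 23.3 and 19.9 CPM in AKO, against 57.1, 63.7 and 92.6 CPM in control (−1.56, SE 0.243, adjusted p = 0.0749), the smallest p of all members in WAT. Col12a1 stood at 15.2, 13.4 and 10.3 CPM in AKO, against 29, 33.7 and 61.3 CPM in control (−1.69, SE 0.323, adjusted p = 0.0913). Col15a1, a multiplexin of vascular basement membranes, measured −0.84 (SE 0.21, adjusted p = 0.119). For all 3 genes the highest AKO library lay below the lowest control.

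The number of calls in WAT differed between analyses. DESeq2 called 17 of the same 35 members lower, beside 6.15% of all genes, and 1, Col6a5, higher, beside 4.4%. An edgeR fit of all 12 libraries called 13 lower, beside 3.61% of all genes, and all 13 were among the DESeq2 calls. Without WAT control 2, the control with B lymphocyte markers, edgeR called 10 lower, beside 3.56% of all genes, and 4 higher, beside 6.51%, the 4 being Col6a4, Col6a5, Col11a2 and Col27a1. Col6a4 passed the filter only through WAT AKO, and leaving out the 1 control with more than 2 of its counts fixed its direction, so its call carries no support. Col4a1, Col4a2, Col4a5, Col5a1, Col5a2, Col6a3, Col16a1 and Col18a1 were called lower by each of these 3 analyses, which share libraries and are not independent. WAT control 2 was the lowest control for Col4a1, Col4a2, Col5a1, Col5a2, Col6a3 and Col18a1, so leaving it out widened their differences. It was the highest control for Col6a5, Col11a2 and Col27a1, so leaving it out also raised theirs. Without the filter on low counts 5 members were called lower, beside 0.599% of all genes. With the libraries that held most muscle counts left out together, edgeR called 0 members in WAT.

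**Figure D4:**
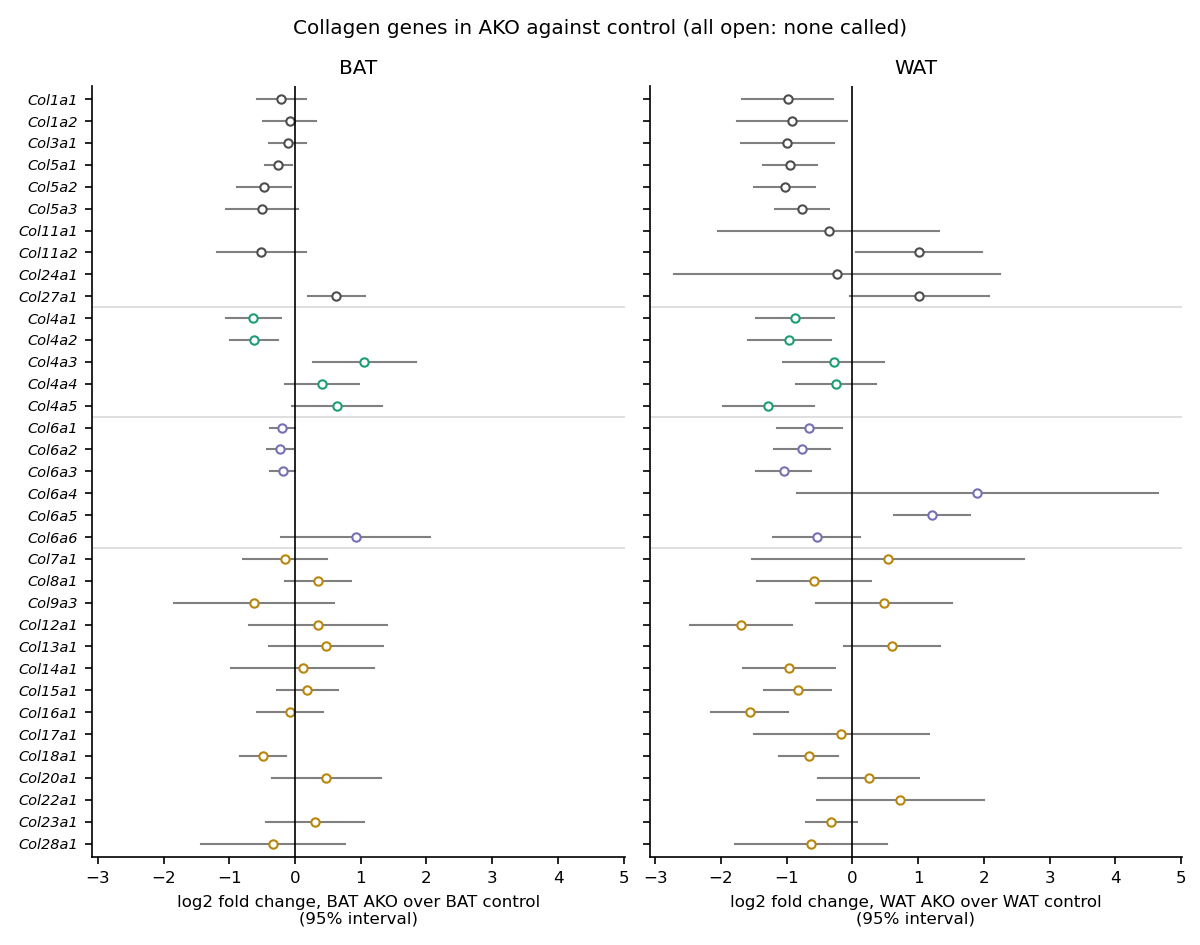
log2 fold change of AKO over control for the collagen genes tested in BAT (left) and in WAT (right), from edgeR; points are estimates and lines 95% intervals, grouped and coloured by class. All points are open since no adjusted p is under 0.05; most fibrillar, type IV and type VI points lie below 0 in WAT and nearer to 0 in BAT.

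Genes that act on collagen were described beside the chains in WAT, and none of them was called. Of 22 tested genes for folding, processing and crosslinking, 21 were negative (median log2 fold change −0.74). Serpinh1, the collagen chaperone of the endoplasmic reticulum, stood at 317, 375 and 274 CPM in AKO, against 684, 577 and 784 CPM in control (−1.10, SE 0.189, adjusted p = 0.08). Bmp1, which cleaves the procollagen C-propeptide, measured −0.85 (SE 0.126, adjusted p = 0.0721) and the lysyl oxidase Loxl4 −1.30 (adjusted p = 0.0828). All 12 basement membrane partners were negative (median −0.47), among them the laminin chain Lamc1 at −0.61. Of 9 receptors, 7 were negative, with the collagen-binding kinase Ddr2 at −0.61 and the uptake receptor Mrc2 at −2.04. Of 8 fibril-binding proteoglycans 6 were negative, with Lum at −0.91 and Fmod at 0.83, and of 6 degradation genes 5, with the membrane collagenase Mmp14 at −0.78.

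Marker levels of several cell types also differed between the WAT groups. The 8 fibroblast and progenitor markers summed to 926 to 948 CPM in AKO and 1040 to 1620 CPM in control, with 8 of 8 lower in mean. Dcn and Lum stand both in that marker list and in the proteoglycan list. The 6 endothelial markers summed to 649 to 913 CPM in AKO and 829 to 1656 CPM in control (6 of 6 lower), and the 6 macrophage markers to 323 to 386 CPM in AKO and 494 to 739 CPM in control (6 of 6 lower). Adipocyte markers summed to 16120 to 19110 CPM in AKO and 18870 to 22640 CPM in control (6 of 6 lower in mean), and smooth muscle and pericyte markers to 485 to 588 CPM in AKO and 491 to 1142 CPM in control (6 of 6 lower). T lymphocyte markers went the other way, with 163 to 300 CPM in AKO and 5.52 to 165 CPM in control (0 of 6 lower), as did the B lymphocyte markers given above. No fibroblast, endothelial or macrophage marker was at 0 in any library. Their part in the collagen differences was not tested.

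In BAT the AKO differences were smaller for most chains and none passed the test. edgeR tested 29 of the 44 members and called none, beside 0.0771% of all 14265 genes. Of the 29, 17 had a negative log2 fold change, beside 48.4% of all genes, with a median of −0.11 over the members and 0.01 over all genes. The groups did not overlap, with AKO lower, for 8 members, beside 11.5% of all genes, and with AKO higher for 2, beside 8.19%. At an unadjusted p under 0.05, 7 of the 29 members were lower, beside 6.62% of all genes, and 2 were higher, a share near the 7% of all genes. The 15 members not tested were the 9 left out in WAT and Col6a4, Col6a5, Col11a1, Col17a1, Col22a1 and Col24a1. Col4a3 and Col6a6 passed the filter only through BAT AKO, and Col9a3 only through BAT control. In both counts the 2 higher members were Col27a1 and Col4a3. Since Col4a3 was higher in the group it passed through, its place in these counts carries no support.

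Col4a2 and Col4a1 had the smallest p of the members in BAT. Col4a1 stood at 714, 699 and 710 CPM in BAT AKO, against 1011, 885 and 1441 CPM in BAT control, without overlap (−0.63, SE 0.177, adjusted p = 0.273). Col4a2 stood at 630, 607 and 651 CPM in AKO, against 909, 811 and 1231 CPM in control, also without overlap (−0.63, SE 0.157, adjusted p = 0.257). The AKO libraries differed little from one another, and control 3 was the highest. Without BAT control 3 the log2 fold change of Col4a1 was −0.40. Col4a3, a chain of specialised basement membranes, was near the detection limit, with 1.44, 2.06 and 2.02 CPM in AKO and 0.745, 1.27 and 0.656 CPM in control (1.06, SE 0.332, adjusted p = 0.297). Col4a3 shares 563 exon bases with C430014B12Rik on the opposite strand, so its counts are uncertain. Endothelial markers summed to 1244 to 1509 CPM in AKO and 1514 to 1712 CPM in control (5 of 6 lower in mean), and their part in the type IV difference was not tested.

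Col27a1, a fibrillar collagen best known from cartilage, stood at 225, 203 and 240 CPM in BAT AKO, against 104, 168 and 164 CPM in BAT control. Every AKO library was above every control (0.63, SE 0.186, adjusted p = 0.28). Col18a1, a basement membrane multiplexin that releases endostatin, stood at 58.8, 59.3 and 53.1 CPM in AKO, against 73.8, 69.9 and 99.5 CPM in control (−0.49, SE 0.149, adjusted p = 0.287). DESeq2 called Col4a1 and Col4a2 lower, beside 1.03% of all genes, and Col27a1 higher, beside 0.932%, and no other alternative called a member.

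The type I and III chains did not differ between genotypes in BAT beyond their spread. Col1a1 stood at 189, 240 and 210 CPM in AKO, against 306, 228 and 217 CPM in control, with overlap (−0.21, 95% interval −0.57 to 0.16). Col3a1 stood at 436, 449 and 446 CPM in AKO, against 576, 427 and 455 CPM in control, with overlap (−0.11, 95% interval −0.39 to 0.17). Col1a2 had a log2 fold change of −0.08 (95% interval −0.48 to 0.32). For Col1a2 and Col3a1 the sign turned when BAT control 1 was left out, to 0.10 and 0.02. Col5a1 (−0.25, SE 0.0892), Col5a2 (−0.47, SE 0.177), Col6a1 (−0.19, SE 0.0792), Col6a2 (−0.23, SE 0.085) and Col6a3 (−0.19, SE 0.08) were lower in every AKO library than in any control, with adjusted p between 0.328 and 0.371. Of the collagens outside these classes, Col8a1 (0.35) and Col20a1 (0.48) followed Col18a1 by p, and their groups overlapped. Col1a2, Col12a1 and Col16a1 had adjusted p of 0.86, 0.754 and 0.894 in BAT.

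Among the genes that act on collagen in BAT, 18 of 23 for folding, processing and crosslinking were negative (median log2 fold change −0.27). Adamts3, a procollagen N-proteinase, measured 1.29 and the lysyl hydroxylase Plod3 −0.36, without overlap of the groups. Adamts3 stood at 1.58, 1.1 and 1.37 CPM in AKO, against 0.447, 0.775 and 0.437 CPM in control. It passed the filter only through BAT AKO, where it is higher, so its difference carries no support. Of the receptors, 4 of 8 were negative, and of the basement membrane partners 8 of 12. Of the proteoglycans 2 of 8 were negative, and of the degradation genes 5 of 7, with Mmp14 at −0.60 (adjusted p = 0.316). Fibroblast and progenitor markers summed to 345 to 506 CPM in AKO and 398 to 538 CPM in control, with 4 of 8 lower in mean.

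The AKO effect was then compared between tissues in 1 fit of all 12 libraries. Of 35 members tested none differed by edgeR, beside 0.275% of all 16391 genes, and at an unadjusted p under 0.05 the BAT effect was higher for 10 members, beside 8.34% of all genes, and lower for 1, beside 10.1%. The difference, BAT effect minus WAT effect, was negative for 6 members, beside 52.1% of all genes, and positive for 29. Its median was 0.59 over the members and −0.02 over all genes. These numbers include Col6a4, Col6a5, Col11a1, Col17a1, Col22a1 and Col24a1, which were too low in counts to be tested in BAT alone. All of these except Col6a4 had a positive difference, which rests on few BAT counts. The smallest p were those of Col6a3 (0.82, SE 0.177, adjusted p = 0.0822), Col16a1 (1.44, SE 0.326, adjusted p = 0.0846) and Col4a5 (1.88, SE 0.443, adjusted p = 0.0902). The intervals of Col4a1 and Col4a2 included 0, at 0.20 (95% interval −0.47 to 0.87) and 0.29 (95% interval −0.38 to 0.96). Without WAT control 3 they were −0.01 and 0.02. Col1a1 measured 0.74 (SE 0.34), Col1a2 0.80 (SE 0.413), Col3a1 0.84 (SE 0.321), Col5a1 0.66 (SE 0.18), Col5a2 0.53 (SE 0.269), Col6a1 0.43 (SE 0.21) and Col6a2 0.50 (SE 0.179). Without WAT control 1 the differences were 0.45 for Col1a1, 0.39 for Col1a2 and 0.56 for Col3a1. DESeq2 called 7 members, all with a higher effect in BAT: Col4a5, Col5a1, Col6a2, Col6a3, Col12a1, Col15a1 and Col16a1, beside 3.76% of all genes. Without WAT control 2, edgeR called Col4a5, Col5a1, Col6a3 and Col16a1 with a higher effect in BAT, beside 1.44% of all genes, and Col6a4, whose call carries no support here either, and Col11a2 with a lower one, beside 4.06%. Without the filter on low counts it called 1 member, Col16a1, beside 0.227% of all genes. With the replicate number as a block within each genotype, a fit chosen after seeing the data, edgeR called 1 member, Col12a1, with a higher effect in BAT, beside 0.647% of all genes. The difference for Col12a1 was 2.01 (SE 0.359, adjusted p = 0.0396) with that block, against an adjusted p of 0.141 without it and a range of 0.0134 to 0.302 over all alternatives.

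Between the tissues themselves, collagen transcripts were far lower in BAT than in WAT. Of 44 members, 31 were tested between the control groups and 23 were called by edgeR, 20 lower and 3 higher in BAT, beside 50.1% of all 15031 genes (25.7% lower, 24.4% higher). The median log2 fold change was −2.10 over the members and −0.04 over all genes. The other 8 tested members were not called, and 13 were not tested. These were the 9 left out above and Col6a4, Col11a1, Col22a1 and Col24a1. Col4a3, Col6a5 and Col6a6 passed the filter only through WAT, where they are higher, so their places among the 20 lower members carry no support. Col9a3 passed only through BAT. The control libraries here are those that also entered the comparisons of AKO with control.

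Among fibrillar genes 6 of 8 fell in BAT, with Col1a1 at 306, 228 and 217 CPM in BAT control, against 2495, 1600 and 1233 CPM in WAT control (−2.84, SE 0.298, adjusted p = 0.00041). Even the highest BAT library lay far below the lowest WAT library. Col5a1 stood at 86.2, 73.3 and 76.2 CPM in BAT, against 561, 458 and 520 CPM in WAT (−2.71, SE 0.132, adjusted p = 4.79e-05), the smallest p of all members. Col1a2 (−2.71), Col3a1 (−2.80), Col5a2 (−2.82) and Col5a3 (−2.74) fell by similar amounts. The other 2 fibrillar genes rose. Col27a1 stood at 104, 168 and 164 CPM in BAT control, against 4.91, 10.4 and 3.13 CPM in WAT control (4.55, SE 0.47, adjusted p = 0.000384). In FPKM, Col27a1 averaged 9.72 ± 2.5 in BAT control and 0.536 ± 0.36 in WAT control, so it was among the 12 most abundant collagens of BAT. Col11a2, a chain of cartilage fibrils, stood at 8.87, 9.23 and 5.17 CPM in BAT, against 1.5, 3.58 and 1.46 CPM in WAT (1.81, SE 0.434, adjusted p = 0.0125).

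Type IV genes fell in BAT: 5 were tested and called lower, of which Col4a3 passed the filter only through WAT. Col4a1 stood at 1011, 885 and 1441 CPM in BAT control, against 2824, 1938 and 3480 CPM in WAT control (−1.31, SE 0.27, adjusted p = 0.0068). Col4a2 measured −1.21 (SE 0.268, adjusted p = 0.00903). Col4a5 measured −1.15, and −0.75 without WAT control 1, the control with most skeletal muscle counts. Endothelial markers, by contrast, summed to 1514 to 1712 CPM in BAT control and 829 to 1656 CPM in WAT control, with 1 of 6 lower in mean. Fibroblast and progenitor markers summed to 398 to 538 CPM in BAT control and 1040 to 1620 CPM in WAT control, with 7 of 8 lower. Their part in these differences was not tested.

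Type VI genes fell in BAT: 5 were tested and called lower, of which Col6a5 and Col6a6 passed the filter only through WAT. Col6a1 stood at 203, 202 and 191 CPM in BAT control, against 1173, 1070 and 836 CPM in WAT control (−2.38, SE 0.159, adjusted p = 7.43e-05). Col6a2 (−2.51, SE 0.124) and Col6a3 (−2.35, SE 0.143) showed changes of like size. Col6a5 had 1, 0 and 0 counts in BAT control 1, 2 and 3, against 35, 44 and 26 counts in WAT control 1, 2 and 3. Of 13 other collagens tested, 4 were called lower, a share near the 25.7% of all genes, and the median log2 fold change was −0.58. These 4 were Col15a1 (−3.62, SE 0.213, adjusted p = 5.48e-05), Col16a1 (−3.08), Col18a1 (−2.55) and Col14a1 (−2.10). Col15a1 stood at 57.8, 88.3 and 74.5 CPM in BAT, against 824, 813 and 1062 CPM in WAT. Col13a1, a transmembrane collagen, rose, with 4.17, 9.16 and 3.57 CPM in BAT and 0.752, 1.19 and 0.707 CPM in WAT (2.65, SE 0.458, adjusted p = 0.00331). Col20a1 (0.97) and Col7a1 (1.36) did not pass the test.

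**Figure D5:**
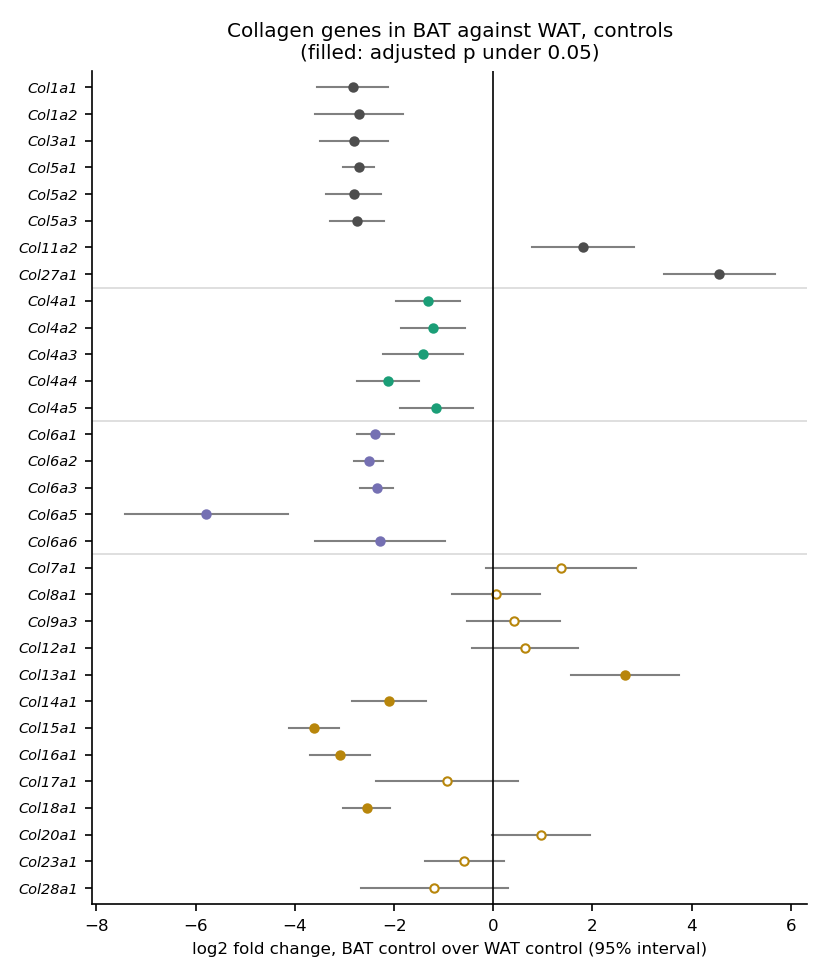
log2 fold change of BAT control over WAT control for the 31 collagen genes tested, from edgeR; points are estimates, lines 95% intervals, filled points have an adjusted p under 0.05 and colours give the class. The filled points are 20 below 0 and 3 above it, Col27a1, Col13a1 and Col11a2.

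Same-numbered BAT and WAT control libraries deviated together, though weakly for replicate 2 (correlation 0.238). A fit with the replicate number as a block called 26 members, beside 54.1% of all genes. It added Col12a1 and Col7a1, which had positive log2 fold changes, and Col28a1, which had a negative one. Their adjusted p under the block were 0.00823, 0.032 and 0.00431, against 0.268, 0.115 and 0.154 without it. Over all alternatives of this comparison the adjusted p ran from 0.00823 to 0.894 for Col12a1, from 0.0102 to 0.232 for Col7a1 and from 0.00431 to 0.468 for Col28a1. The genes that act on collagen were mostly lower in BAT as well. Here fell and rose mean called lower and called higher by edgeR, beside 25.7% and 24.4% of all genes. Of 22 for folding, processing and crosslinking, 14 fell and 1 rose, and of 9 receptors 7 fell and 1 rose. The receptor Itga2, among those 7, passed the filter only through WAT, where it is higher, so its place there carries no support. Of 12 basement membrane partners 9 fell and 1 rose, of 6 degradation genes 3 fell, and all 8 proteoglycans fell. The fold changes of Ddr2 (−2.09), Sparc (−2.02) and Lum (−2.35) were close to those of the type VI chains, and Pcolce2, an enhancer of procollagen cleavage, measured −3.74.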

How the data were processed

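PolyA RNA was sequenced from 12 libraries. The authors deposited unnormalised read counts per Ensembl gene, and FPKM. The submitters' processing notes name HTSeq 0.6.0, HISAT2 2.1.0, Bowtie2 2.2.3 and build mm10. No source used here states their roles or a strand setting. Each FPKM equals the count over the library total and over a value fixed for the gene (largest relative deviation 9.12e-09 over 11652 genes). Symbols came from GENCODE M21 and matched 52403 IDs, and 147 had none.

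The count tests used edgeR 4.0.16 under R 4.3.3 (quasi-likelihood F-test, TMM, filterByExpr at 10 counts minimum and 15 in total, Benjamini-Hochberg over all genes tested, threshold 0.05). The code recovered known changes in simulated data that gave every gene the same spread between libraries. That checks the code and not the power of the test in these data. Alternatives used DESeq2 1.42.0 and limma 3.58.1. Deviations of same-numbered BAT and WAT control libraries from their group means correlated at 0.517, 0.238 and 0.45, and those of AKO libraries at 0.567, 0.676 and 0.136, so the numbers were taken to pair these tissues. Same-numbered AKO and control libraries correlated at −0.615 to 0.219, so the values of 0.238 and 0.136 are weak grounds for pairing. The AKO 2 libraries, at 0.676, were both rich in skeletal muscle counts. Libraries with different numbers were not compared. The labels do not say that they share an animal. Members and lists were chosen with earlier results of these data known. Named genes were the main chains, members with the smallest p per class or direction, and up to 3 genes per list. Col14a1 and other members named beyond this were chosen after their values were seen. Levels and intervals cover library spread only, and the depth of 15692588 to 18967159 counts limits the members with low counts.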

Additional observations from a re-analysis of the deposited data

How the results depend on the processing

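Alternatives were DESeq2's size factors in edgeR, no filter, a mean of at least 2 CPM, DESeq2, limma voom, limma on log2 FPKM, the replicate block, all 12 libraries in 1 fit, the libraries with most muscle counts left out, and each library left out in turn. For AKO against control in WAT the 0 calls became 5 without a filter, 18 with DESeq2 and 13 with all 12 libraries in 1 fit, and ran from 0 to 14 with single libraries left out, the 14 being without WAT control 2. Limma, the other filter, the block and leaving out the muscle-rich libraries gave 0. For AKO against control in BAT DESeq2 gave 3 calls and the other alternatives 0 (range 0 to 0 with single libraries left out). For BAT against WAT controls calls ran from 17 to 26 over all alternatives and from 20 to 25 with single libraries left out. For the difference of the AKO effects, 1 member was called without a filter, 1 by each of the 3 limma FPKM settings, 7 by DESeq2, and 0 to 6 with single libraries left out, the 6 being without WAT control 2.

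The log2 fold change of Col1a2 in BAT ran from −0.17 to 0.10 with single libraries left out (0.03 without BAT AKO 1 and 0.10 without BAT control 1), and that of Col3a1 in BAT from −0.198 to 0.0233 (the highest without BAT control 1). The difference of effects of Col4a1 ran from −0.00631 to 0.43 (the lowest without WAT control 3). The cause was not tested. FPKM carry no TMM factor: the median log2 difference of all genes between BAT and WAT controls was −0.04 by edgeR and −0.25 on log2(FPKM + 1). The calls over all genes were 3666 higher and 3858 lower by edgeR, and 2184 and 6008 on log2(FPKM + 1), 2195 and 6151 on log2(FPKM + 0.1), and 1916 and 4992 at a mean FPKM of at least 1. Numbers did not pair AKO with control libraries within a tissue. With the replicate block the members called stayed at 0 in WAT and in BAT, and calls over all genes went to 0 against 3 in WAT and to 1 against 11 in BAT. The replicate block also gave 0 for the difference of effects. A replicate block within genotype, chosen after seeing the data, called 1 member, Col12a1. Members with few counts could not be tested at this depth, and intervals cover the spread of 3 libraries a group.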
